A study of Mus musculus with 12 samples.

Results

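The genes described here carry out glutamate signalling: the AMPA, NMDA, kainate, delta and metabotropic glutamate receptors, the auxiliary subunits of AMPA and kainate receptors, the transporters that load glutamate into vesicles or take it up at the cell surface, and scaffold proteins of the postsynaptic side. They were chosen by name, and every probe set annotated to one of them alone was read. The list named 37 genes, of which 36 had such a probe set, out of 18194 genes named in the table. These 36 genes had 80 probe sets, and 29 of them had at least 1 probe set bright enough to test. Grin1, the obligatory NMDA receptor subunit, was not analysed here.

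Transcript levels were measured on 12 arrays from mouse cortex at embryonic day 14, and the title of the series concerns basal progenitors and the transcription factor AP2gamma, encoded by Tfap2c. The 4 groups were rostral and caudal cortex of AP2gamma knockout mice (KO) and of control mice labelled wild type (WT). Each group held 3 biological replicates, and each array carried an animal number of its own. In caudal cortex, animals 1, 2 and 13 were KO and animals 4, 6 and 14 were WT. In rostral cortex, animals 7, 8 and 15 were KO and animals 10, 12 and 16 were WT. The labels name neither the strain, nor the knockout allele, nor a Cre driver, nor the cells in which the gene was lost.

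Glutamate is the main excitatory transmitter of the cortex. Vesicular transporters fill synaptic vesicles with it, AMPA, NMDA and kainate receptors open ion channels when they bind it, and metabotropic receptors act through G proteins. In the embryonic cortex few synapses have formed, and receptors on progenitors and migrating neurons can respond to glutamate in the surrounding fluid. Newborn projection neurons carry transcripts for many receptor subunits before their synapses mature.

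All levels are log2 values as deposited, so a difference of 1 is a doubling, and levels of different probe sets are not compared with each other. Array medians were 5.21 or 5.22 and upper quartiles 7.54 to 7.56 in the deposited values. Their normalisation is not given, so whether the signal was alike before it cannot be told. A probe set was tested when at least 3 arrays read above the table's overall median, 5.21, and a gene is called dim in a group whose 3 arrays all lay at or below 5.21. Tfap2c itself read 7.44 to 7.86 in caudal KO and 8.64 to 9.19 in caudal WT, with no overlap, and 8.09 to 8.63 in rostral KO against 8.54 to 9.06 in rostral WT, where the ranges overlapped. Where its probes lie relative to the deleted part is not given in the sources used here. The neuron markers, 12 of 12 tested, had a mean level of 10.81 to 11.2 per array, and the radial glia markers, 10 of 10 tested, 10.18 to 10.56. Transcripts of the sex chromosomes were uneven between the genotypes: Xist read 11.32 in caudal WT animal 6 and 11.89 in rostral WT animal 12, with the Y-linked Eif2s3y at 0.2 and 2.6. No KO array had Xist above 5.21 or Eif2s3y below 8.78. Animals 13 to 16, each from another group, differed from the others of their groups in a shared way that touched several receptor genes and is described last.

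Of the 29 tested members, 23 exceeded 5.21 on all 12 arrays. The AMPA subunit genes Gria1 to Gria4 were among these, as were the auxiliary subunit genes Cacng2, Cacng4, Neto1 and Neto2, and all 6 tested scaffold genes. The other 6 passed on fewer arrays. Grin2d, an NMDA subunit gene typical of the embryo, passed on 8 arrays and Grm7, for a presynaptic metabotropic receptor, on 10. Grin3a, whose product forms NMDA receptors of low calcium permeability, passed on 3 arrays, 2 caudal and 1 rostral. Slc17a7, which encodes the vesicular transporter that becomes prominent in the cortex after birth, passed on 7 arrays, 5 of them caudal. Grm3 passed on 7 arrays, 1 caudal and 6 rostral, and Grm2 on 3 arrays, all rostral. Both encode group II metabotropic receptors, which lower cyclic AMP. A gene that passes the filter through the region where it is bright is more likely to differ between regions, so counts over the tested members are descriptions.

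The 7 other members with a probe set were not bright enough to test. The NMDA subunit genes Grin2a and Grin2c, which gain expression as the brain matures, reached at most 3.6 and 4.13. The kainate subunit genes Grik1 and Grik4 reached at most 5.54 and 4.95, and Grik1 exceeded 5.21 on 1 array. Grid1, for a delta receptor, exceeded it on 2 arrays with a highest value of 5.77. Grm8, for a presynaptic metabotropic receptor, reached 4.35 and the scaffold gene Shank1 reached 5.05.

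The first comparison asked which members differed between caudal and rostral cortex when both genotypes were averaged, 6 arrays against 6. Slc17a6 and Grm3 were lower in caudal cortex, and the other 27 tested members did not pass. Slc17a6 encodes the vesicular glutamate transporter of many subcortical and of developing cortical glutamatergic neurons. The 2 genes were called by limma at an adjusted p under 0.05, 2 of 29, beside 4.46% of all 11785 tested genes called in either direction and 3.21% called lower. Before adjustment, 5 of 29 members had a p under 0.05, beside 17.3% of all genes. The median difference was 0.04 over the members and -0.02 over all tested genes, with 16 members higher and 13 lower caudally.

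Slc17a6 read 9.21, 9.17 and 9.22 in caudal KO and 9.55, 9.32 and 9.37 in caudal WT. It read 9.65, 9.55 and 9.63 in rostral KO and 9.66, 9.72 and 9.7 in rostral WT. Every caudal array lay below every rostral array, although caudal WT animal 4 and rostral KO animal 8 differed only beyond the second decimal. The mean was 9.31 in caudal and 9.65 in rostral cortex, a difference of -0.34 ± 0.06 (standard error, SE; 95% interval -0.47 to -0.22), a 1.27-fold lower level (limma, adjusted p = 0.00485). Over 25 alternative settings the adjusted p ran from 0.00242 to 0.0513, and the call was lost in 1 of them, the fit of animals 1 to 12 alone. The difference was -0.33 within animals 1 to 12 and -0.37 within animals 13 to 16.

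A second probe set of Slc17a6 gave a less clear regional difference. It read 8.63, 8.54 and 8.92 in caudal KO, 9.17, 9.18 and 8.93 in caudal WT, 8.99, 9.31 and 9.21 in rostral KO, and 9.01, 9.37 and 9.12 in rostral WT. Caudal KO was the low group, with animal 13 almost level with caudal WT animal 14, and caudal WT overlapped with rostral WT. Its regional difference was -0.27 ± 0.10 (limma over all tested probe sets, adjusted p = 0.201), made up of -0.47 in KO and -0.07 in WT.

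Grm3 read 4.85, 4.55 and 5.15 in caudal KO and 4.3, 4.4 and 5.55 in caudal WT. It read 5.86, 6.24 and 6.73 in rostral KO and 6.86, 6.07 and 6.04 in rostral WT. All 6 rostral arrays lay above all 6 caudal arrays, and of the caudal arrays WT animal 14 alone exceeded 5.21. The mean was 4.8 in caudal and 6.3 in rostral cortex, a difference of -1.50 ± 0.26 (95% interval -2.07 to -0.93; limma, adjusted p = 0.0054). Because Grm3 was dim in caudal KO, the level is given as at least 2.04-fold lower in caudal cortex, computed after raising lower values to 5.21. It passed in the 24 alternatives that tested it, with adjusted p from 0.00124 to 0.0237, and had 1 tested probe set. Slc17a6 and Grm3 were also the members with no overlap between the regions, 2 lower and 0 higher, beside 2.38% and 0.815% of all genes (3.19% in either direction). Grm3 was tested mainly through its rostral arrays, so its place in this count is a description only.

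**Figure D1:**
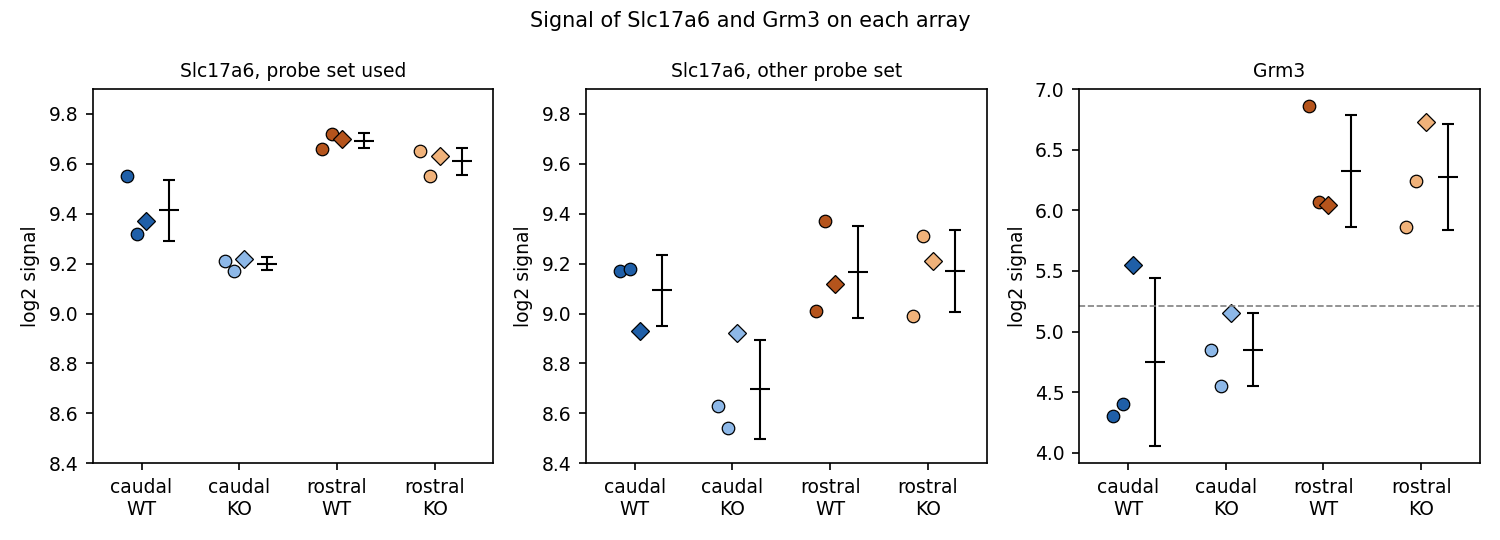
Log2 signal (vertical axis) of Slc17a6 on its 2 tested probe sets and of Grm3, for each array of the 4 groups; circles are animals 1 to 12, diamonds animals 13 to 16, the bar is the mean ± SD of 3 arrays, and the dashed line marks 5.21. On the probe set used, Slc17a6 was lower on all 6 caudal arrays than on all 6 rostral ones, its other probe set was low mainly in caudal KO, and Grm3 exceeded 5.21 on all rostral arrays but only 1 caudal array.

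The sequences just upstream of the start of the 2 called genes and of Homer2, described below for its genotype difference, are printed to show what an AP2 motif search could read there. They are the 250 bases before the transcript start in RefSeq on GRCm38.p6, 5′ to 3′ on the strand of the gene. Grm3 lies at chr5:9725353-9725602 on the minus strand, Slc17a6 at chr7:51621580-51621829 on the plus strand and Homer2 at chr7:81706926-81707175 on the minus strand. The motif searched was GCCNNNGGC, the palindromic core that AP2 factors are known to bind, which reads the same on both strands. Matches are in capitals.
Grm3: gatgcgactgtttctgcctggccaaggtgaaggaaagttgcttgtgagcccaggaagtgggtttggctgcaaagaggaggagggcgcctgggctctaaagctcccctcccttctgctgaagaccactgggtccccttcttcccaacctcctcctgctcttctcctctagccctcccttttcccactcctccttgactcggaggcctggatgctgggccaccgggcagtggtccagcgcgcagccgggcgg
Slc17a6: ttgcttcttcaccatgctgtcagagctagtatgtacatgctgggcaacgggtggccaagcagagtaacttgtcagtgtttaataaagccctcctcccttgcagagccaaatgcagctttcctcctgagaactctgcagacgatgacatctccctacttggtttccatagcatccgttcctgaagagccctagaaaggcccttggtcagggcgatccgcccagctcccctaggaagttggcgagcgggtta
Homer2: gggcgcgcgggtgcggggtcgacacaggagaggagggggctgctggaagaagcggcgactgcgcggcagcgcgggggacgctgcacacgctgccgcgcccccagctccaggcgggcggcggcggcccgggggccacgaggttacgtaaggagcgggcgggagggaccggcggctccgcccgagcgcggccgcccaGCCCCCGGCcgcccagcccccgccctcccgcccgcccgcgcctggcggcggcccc
No match was present in these windows of Grm3 and Slc17a6, and the Homer2 window held 1 match that began 55 bases upstream of the start. Of the 37 members, 25 had a promoter in the table used, with 37 promoters in all, and 7 of these promoters (18.9%) held a match, beside 4509 of 32851 promoters of the same length (13.7%). Counted by gene, 7 of 25 members (28%) held a match, beside 4163 of 27025 genes (15.4%), and this difference was not tested. The 7 genes were Dlg3, Dlg4, Grik4, Grm2, Grm8, Homer2 and Shank3. A match is a description of the sequence and no evidence of binding, and the absence of one says only that these letters were not in the window. The Homer2 window had a GC content of 83.2%, against 62.4% for Grm3 and 53.2% for Slc17a6.

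Of the 5 tested metabotropic receptor genes, Grm3 was called, beside the 4.46% of all genes given above. Because Grm2 and Grm3 were tested mainly through their rostral arrays, no median or count of direction is given for this role. Grm4, for a presynaptic receptor, read 5.52 to 5.76 in caudal KO, 5.6 to 6.44 in caudal WT, 6.02 to 6.58 in rostral KO and 6.03 to 6.6 in rostral WT. Caudal WT animal 4 at 6.44 reached into the rostral range, and the other 5 caudal arrays lay below it. The difference was -0.57 ± 0.18 (limma, adjusted p = 0.115).

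Grm2 read 2.8 to 4.65 on the 6 caudal arrays, 4.7, 5.86 and 6.06 in rostral KO, and 3.61, 3.59 and 5.32 in rostral WT. It was dim in both caudal groups, and rostral WT animals 10 and 12 lay within the caudal range. The difference on the values as deposited was -0.95 ± 0.47 (limma, adjusted p = 0.315), and it rested in part on values below 5.21. Grm5, for a group I receptor that acts through calcium release, differed by -0.18 ± 0.14 and Grm7 by 0.08 ± 0.22.

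Among the AMPA receptor genes, 2 of 4 were higher and 2 lower caudally, and none passed. Gria4, for a subunit with fast gating, read 7.33 to 7.87 on the 6 caudal arrays and 7.02 to 7.56 on the 6 rostral arrays. The ranges overlapped through the rostral arrays of animals 15 and 16. The difference was 0.39 ± 0.13 (limma, adjusted p = 0.115), and it passed with array weights and with a term for animals 13 to 16, the arrays described last. Gria3 differed by -0.26 ± 0.13, Gria1 by 0.07 ± 0.15 and Gria2, whose edited subunit keeps AMPA channels from passing calcium, by -0.05 ± 0.20. The 95% interval for Gria2 ran from -0.48 to 0.38, so a regional difference within those bounds was not resolved. The AMPA auxiliary genes Cacng2 and Cacng4 differed by 0.27 ± 0.14 and -0.18 ± 0.09.

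None of the 3 tested NMDA receptor genes passed. Grin2b, for the main glutamate-binding NMDA subunit of the embryonic forebrain, differed by 0.14 ± 0.31, Grin2d by -0.02 ± 0.23 and Grin3a by 0.03 ± 0.37. These intervals were wide, reaching from -0.77 to 0.84 for Grin3a.

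The kainate receptor genes Grik2, Grik3 and Grik5 differed by 0.25 ± 0.16, 0.07 ± 0.20 and -0.01 ± 0.13, and none passed. Grik5 encodes a subunit that needs a partner such as that of Grik2 to form a channel. The genes for the kainate auxiliary subunits, Neto1 and Neto2, differed by 0.22 ± 0.19 and -0.09 ± 0.12.

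Of the 2 vesicular transporter genes, Slc17a7 differed in the opposite direction from Slc17a6, by 0.39 ± 0.20, and did not pass (limma, adjusted p = 0.326). It was dim in rostral KO, where it read 4.79, 4.86 and 4.35, so the 0.39 rested in part on values below 5.21. Caudal KO arrays read 5.42, 5.56 and 5.11, caudal WT arrays 5.28, 5.44 and 5.5, and rostral WT arrays 5.14, 5.44 and 5.37, so rostral KO alone lay below the rest. At the plasma membrane, Slc1a1, for a neuronal uptake transporter, differed by 0.12 ± 0.14. Slc1a2, for the uptake transporter that becomes dominant in astrocytes, differed by -0.37 ± 0.20.

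Of the 6 tested scaffold genes, 5 were higher and 1 was lower caudally, and none passed. The lower one was Homer2, for an adaptor that links metabotropic receptors to calcium stores, at -0.45 ± 0.15 (limma, adjusted p = 0.131), and it passed with the term for animals 13 to 16 and without rostral WT animal 16. The second tested probe set of Homer2 gave a smaller regional difference of -0.18. Homer1 differed by 0.23 ± 0.12. Dlg2, Dlg3 and Dlg4, for membrane-associated guanylate kinases that anchor NMDA receptors, differed by 0.11 ± 0.13, 0.04 ± 0.11 and 0.08 ± 0.10, and Shank3 by 0.14 ± 0.13.

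**Figure D2:**
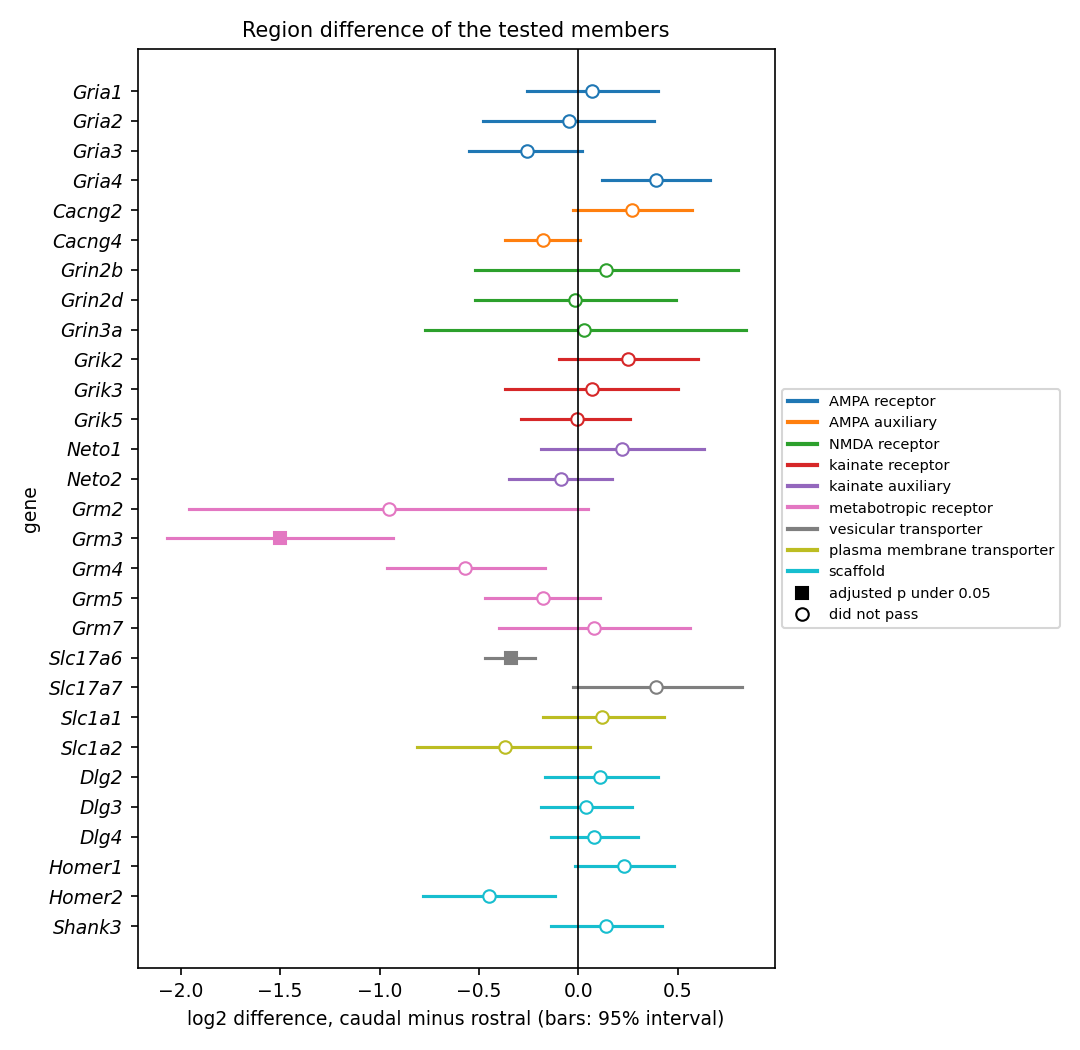
Log2 difference, caudal minus rostral and averaged over genotypes (horizontal axis), of the 29 tested members ordered and coloured by role; bars are 95% intervals, filled squares passed and open circles did not. Grm3 at -1.50 and Slc17a6 at -0.34 passed, and the open circles lie between -0.95 and 0.39. Differences are of the values as deposited, and some, such as those of Grm2, Grm3 and Slc17a7, include readings below 5.21.

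Another 52 genes of glutamate metabolism, receptor trafficking and the postsynaptic side were read beside the members. Of these, 36 were tested, 4 were called lower in caudal cortex and 0 higher, beside 3.21% and 1.26% of all genes. They were Lin7a, for a scaffold of the synaptic membrane, at -0.78; Cbln2, for a secreted synapse organiser, at -1.26; Dlgap1, for a partner of the Dlg proteins, at -0.61; and Cnih2, for an AMPA receptor auxiliary subunit, at -0.35. The median of the 36 genes was -0.02, the same as for all tested genes.

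Some markers of other cells differed between the regions, and most of the lists were mixed in direction. Of 9 tested markers of the ganglionic eminence and of interneurons, 8 were lower caudally, and Isl1, Dlx2 at -1.06, Dlx1 at -1.16 and Dlx5 at -0.75 were called. Isl1 was dim in both caudal groups, and its level was 3.67-fold lower there after raising values to 5.21. The mean level of the 9 markers was 5.49 to 6.53 on caudal arrays and 6.78 to 8.28 on rostral arrays, with no overlap. Nkx2-1, which defines the medial ganglionic eminence, did not exceed 4.91 on any array, and Lhx6 was 0.48 higher caudally without passing. Of 8 tested Cajal-Retzius cell markers, 4 were higher and 4 lower caudally with a median of 0, and Calb2 alone was called, lower at -1.54. The list's mean level was 6.22 to 6.89 caudally and 6.54 to 7.11 rostrally. Of 10 tested deep layer and subplate markers, 6 were higher and 4 lower caudally. Nr4a2 was called higher at 0.80, and Foxp2 at -1.27 and Tbr1 at -0.63 were called lower. The list's mean level was 8.87 to 9.09 caudally and 8.92 to 9.05 rostrally. Pax6 at -0.42, 1 of 10 radial glia markers, and Insm1 at -0.34, 1 of 8 basal progenitor markers, were called lower. In these lists, 5 radial glia markers were higher and 5 lower caudally, and 4 basal progenitor markers were higher and 4 lower. The radial glia list ran from 10.18 to 10.42 caudally and 10.25 to 10.56 rostrally, and the basal progenitor list from 8.75 to 9.6 and 8.9 to 9.49. Of 3 tested choroid plexus markers, 2 were higher and 1 lower caudally with a median of 0.16, and the lower one, Otx2, was called. It read at most 1.61 on 5 caudal arrays and 7 on caudal WT animal 6, and 4.76 to 7.94 on rostral arrays. The mean of the 3 markers was 2.44 to 7.35 caudally and 5.21 to 6.37 rostrally. All 5 tested microglia markers were nominally lower caudally and 0 were called, with a mean level of 5.7 to 6.33 and 6.21 to 6.6. Of the 12 neuron markers, 8 were higher and 4 lower, and Rbfox3 was called higher at 0.37. The neuron list overlapped between the regions, at 10.81 to 11.2 and 10.88 to 11.16. The part of these markers in the differences of Slc17a6, Grm3 and the other members was not tested, and in pieces of tissue fewer cells of a type and less RNA per cell cannot be told apart.

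The regional comparison was then made within each genotype. In WT, 3 arrays against 3, no member passed (0 of 29, limma), beside 0.942% of all genes called in either direction and 0.687% called lower, and 3 members had an unadjusted p under 0.05, beside 10.4%. The 3 with the smallest p were Grm3 at -1.57 ± 0.37 (adjusted p = 0.0666, 0.0299 to 0.281 over its alternatives), Slc17a6 at -0.28 ± 0.08 (adjusted p = 0.163) and Gria3 at -0.52 ± 0.19 (adjusted p = 0.285). These 3 were also the members with no overlap between regions, 3 lower and 0 higher, beside 8.99% and 4.96% of all genes. The place of Grm3 in this count is again a description only, as it was tested mainly through its rostral arrays. Without caudal WT animal 14, whose Grm3 value of 5.55 was the highest of the caudal arrays, Grm3 passed (adjusted p = 0.0316, by limma). The other 2 caudal WT arrays were both below 5.21, so the level without animal 14 was at least 2.16-fold lower. Gria3 read 6.52, 7.2 and 7.21 in caudal WT and 7.71, 7.22 and 7.55 in rostral WT. Animals 6, 14 and 12 thus lay almost level, and caudal animal 4 was the low one.

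In KO, Slc17a6 was lower in caudal cortex and was the only one of 29 members to pass, beside 0.95% of all genes called and 0.73% called lower. Its difference was -0.41 ± 0.08 (95% interval -0.59 to -0.23), a 1.33-fold lower level (limma, adjusted p = 0.0395). The estimate ran from -0.44 to -0.39 over 26 alternatives, but the adjusted p ran from 0.00524 to 0.163, and the call held in 12 of them. It was lost on leaving out any 1 of caudal KO animals 1, 2 and 13, rostral KO animals 7, 8 and 15, or rostral WT animals 10, 12 and 16, with adjusted p up to 0.143. Grm3 differed by -1.43 ± 0.37 and did not pass (adjusted p = 0.0936), and as it was dim in caudal KO the level is given as at least 2.09-fold lower. Before adjustment, 9 of 29 members had a p under 0.05, beside 13.2% of all genes.

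Groups did not overlap in KO for 6 members lower caudally (Cacng4, Grm2, Grm3, Grm4, Slc17a6 and Homer2) and 3 higher (Gria4, Homer1 and Slc17a7), beside 12.1% and 8.78% of all genes (20.9% in either direction). The nearest values of the regions were 4.49 and 4.7 for Grm2 and 5.11 and 4.86 for Slc17a7, all below 5.21. Grm2 and Grm3 were tested mainly through their rostral arrays, so the share of all genes is no fair measure for them. Other tested probe sets of Homer2, Cacng4 and Gria4 overlapped between the regions, as did some of Homer1, while that of Slc17a6 did not. Homer2 differed by -0.67 ± 0.22 (adjusted p = 0.193), Grm4 by -0.68 ± 0.26, Gria4 by 0.45 ± 0.18 and Homer1 by 0.41 ± 0.17. The difference between the regional differences of KO and WT did not pass for either gene called by region. It was -0.13 ± 0.12 for Slc17a6 and 0.14 ± 0.53 for Grm3 (limma, adjusted p = 0.999 for both). On the second probe set of Slc17a6 it was -0.41 ± 0.19 (adjusted p = 1 over all tested probe sets).

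The second question was whether loss of AP2gamma altered the members. Averaged over the regions, 6 arrays against 6, no member passed (0 of 29, limma), beside 0.0339% of all genes, which is 4 genes. Tfap2c was among these 4, at -0.91 (limma, adjusted p = 0.0384). Before adjustment, 5 of 29 members had a p under 0.05, beside 7.53% of all genes. The groups overlapped for all 29 members, beside 0.458% of all genes that did not overlap. The median difference was 0.01 over the members and -0.01 over all tested genes, with 15 members higher and 14 lower in KO.

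Homer2 had the smallest p of the members. It read 7.67, 7.35 and 7.2 in caudal KO and 8.61, 8.3 and 7.9 in caudal WT. It read 7.99, 8.15 and 8.08 in rostral KO and 8.75, 8.79 and 7.99 in rostral WT. Caudal KO lay below all other groups, while rostral KO overlapped with rostral WT through animal 16. The mean was 7.74 in KO and 8.39 in WT, a difference of -0.65 ± 0.15 (95% interval -0.98 to -0.32), and it did not pass (limma, adjusted p = 0.241, 0.0377 to 0.754 over 25 alternatives). It passed in 1 alternative, with a term for animals 13 to 16 in the fit. The difference was -0.82 within animals 1 to 12 and -0.31 within animals 13 to 16, where WT animals 14 and 16 were the lowest of their groups. The second tested probe set of Homer2 gave -0.45 ± 0.15 (adjusted p = 0.606 over all tested probe sets).

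Grik5 and Dlg3 followed. Grik5 read 7.39, 7.65 and 7.95 in caudal KO, 8.08, 7.83 and 8.06 in caudal WT, 7.48, 7.47 and 8.03 in rostral KO, and 7.84, 8.03 and 8.2 in rostral WT. In each region 1 KO array, of animal 13 or 15, reached the WT range. The difference was -0.35 ± 0.13 (limma, adjusted p = 0.548). Dlg3 read 7.97, 7.73 and 8.32 in caudal KO, 8.11, 8.14 and 8.34 in caudal WT, 7.94, 7.86 and 7.84 in rostral KO, and 8, 8.41 and 8.33 in rostral WT. Rostral KO lay below rostral WT and caudal KO overlapped with caudal WT. The difference was -0.28 ± 0.11 (limma, adjusted p = 0.595). Dlg3 is X-linked, and without the WT arrays of animals 6 and 12, which had high Xist, it was -0.25 ± 0.12 (limma, adjusted p = 0.879).

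By role and on the probe sets used, the 4 AMPA receptor genes were all nominally higher in KO, from 0.04 to 0.19. Of the 6 tested scaffold genes, 5 were nominally lower, with a median of -0.14. None of these 10 genes passed. The other tested AMPA probe sets did not share 1 direction. After raising values to 5.21, they gave 0.18 for Gria1, 0.41 and 0.37 for Gria2, -0.21 for Gria3 and 0.09 for Gria4. Slc17a6 differed by -0.15 ± 0.06 (adjusted p = 0.612) and Cacng4 by -0.20 ± 0.09 (adjusted p = 0.628). Grin3a and Grm2 were each dim in at least 1 group and did not pass, and after raising values to 5.21 their differences were 0.08 and 0.23. Grin2b at -0.04 ± 0.31 had a 95% interval of -0.70 to 0.62, and Grm3 at 0.03 ± 0.26 one of -0.54 to 0.60. Of the 36 other glutamate pathway genes tested, 0 passed, and their median was 0.03. Of 8 tested basal progenitor markers, 2 were higher and 6 lower in KO, and 2 were called lower. Their mean level was 8.75 to 9.22 on KO arrays and 9.2 to 9.6 on WT arrays. In the other marker lists 0 were called. All 4 tested cortical hem markers were nominally lower in KO, with a median of -0.82 and many readings below 5.21. The 4 tested markers of meninges and mesenchyme had a mean level of 8.18 on rostral KO animal 15 and 4.96 to 5.97 on the other arrays. The part of these markers in the members' differences was not tested.

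**Figure D3:**
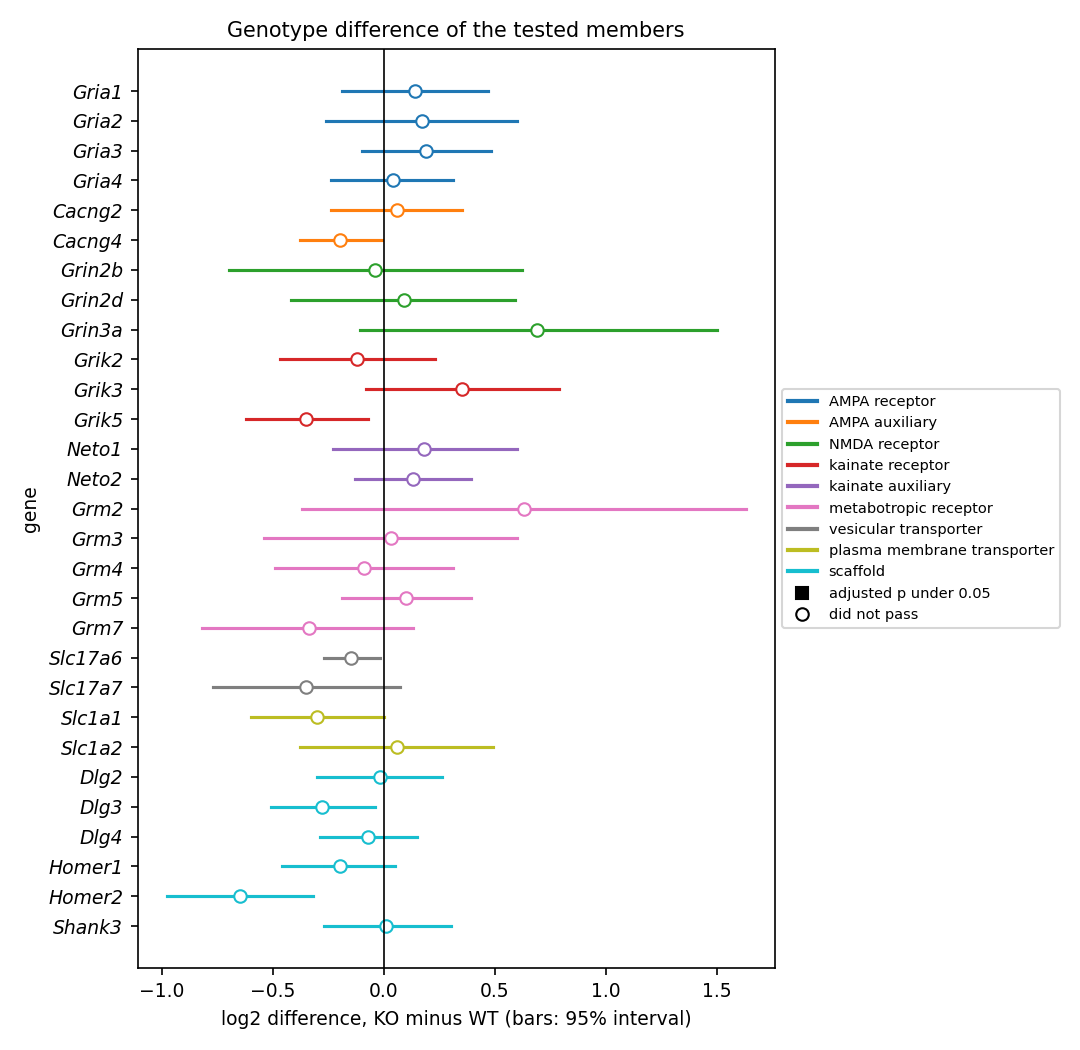
Log2 difference, KO minus WT and averaged over the regions (horizontal axis), of the 29 tested members ordered and coloured by role; bars are 95% intervals and open circles did not pass. All 29 circles are open, and Homer2 at -0.65 lies farthest to the left. Differences are of the values as deposited, and some, such as those of Grm2 and Grin3a, include readings below 5.21.

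Within caudal cortex no member passed (0 of 29, limma), as none of all tested genes did (0%), and 4 members had an unadjusted p under 0.05, beside 4.06% of all genes. Homer2 differed by -0.86 ± 0.22 (adjusted p = 0.74, 0.121 to 1 over its alternatives), Slc17a6 by -0.21 ± 0.08 and Gria3 by 0.45 ± 0.19 (adjusted p = 0.998 for both). The fourth was Grm7 at -0.70 ± 0.31. Tfap2c itself did not pass here, at -1.22 (limma, adjusted p = 0.0843), so the absence of calls does not show that the members were unchanged. Groups did not overlap for Gria3, 1 gene higher in KO beside 3.84% of all genes, and for Grm7, Slc17a6 and Homer2, 3 genes lower beside 3.67%. For Slc17a6 the second probe set gave -0.40 ± 0.14, in the same direction. For Gria3 it gave -0.09 ± 0.38, the opposite sign, with values of 5.07, 6.01 and 6.66 in caudal KO and 5.31, 6.18 and 6.51 in caudal WT that overlapped throughout.

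Within rostral cortex no member passed (0 of 29, limma; 0% of all tested genes), and 3 members had an unadjusted p under 0.05, beside 6.69% of all genes. These were Dlg3 at -0.37 ± 0.15, Homer1 at -0.39 ± 0.17 and Slc17a7 at -0.65 ± 0.28, each with an adjusted p of 0.699. Tfap2c itself did not pass in rostral cortex either, at -0.59 (limma, adjusted p = 0.633), so the same limit holds. Homer1 read 8.84, 8.61 and 8.48 in rostral KO and 8.94, 8.86 and 9.29 in rostral WT. The KO arrays were lower, with animals 7 and 12 almost level. Slc17a7 was dim in rostral KO, so its level is given as at least 1.09-fold lower. Groups did not overlap for 5 members lower in KO (Cacng4, Slc17a6, Slc17a7, Dlg3 and Homer1) and 0 higher, beside 7.5% and 5.46% of all genes. Slc17a6 was almost level, with 9.65 in KO animal 7 and 9.66 in WT animal 10. Its second probe set overlapped, with means of 9.17 in rostral KO and 9.16 in rostral WT. The other tested probe set of Cacng4 overlapped too, at 7.8 to 8.03 in KO and 7.81 to 8.32 in WT. Some other tested probe sets of Homer1 overlapped and another did not. Homer2 differed by -0.44 ± 0.22 here, and Grm2 by 1.36 ± 0.66 with rostral WT values of 3.61, 3.59 and 5.32 against 4.7, 5.86 and 6.06 in KO. Several of these Grm2 values lay below 5.21, so the 1.36 rested in part on them.

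The third question was whether the effect of AP2gamma loss differed between the regions, tested as the caudal KO effect minus the rostral one. No member passed (0 of 29, limma; 0% of all tested genes), and 0 had an unadjusted p under 0.05, beside 3.04% of all genes. The 3 of smallest p were Gria3 at 0.52 ± 0.26, Grm7 at -0.72 ± 0.44 and Slc1a2 at -0.64 ± 0.41 (adjusted p = 0.999 for each). With 3 arrays per group the intervals were wide: that of Homer2, at -0.43 ± 0.31, ran from -1.09 to 0.23.

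The kainate receptor gene Grik2 had a second, dimmer tested probe set, and many of its readings lay below 5.21. Without detection calls, differences among such low readings are to be read with caution. The probe set used read 6.8, 6.39 and 6.71 in caudal KO, 7.09, 6.35 and 7.01 in caudal WT, 6.52, 6.66 and 6.16 in rostral KO, and 6.75, 6.56 and 6.2 in rostral WT, and these ranges overlapped. The dimmer probe set read 5.36, 5.23 and 5.57 in caudal KO and 5.93, 4.56 and 5.95 in caudal WT. It read 4.2, 2.56 and 2.23 in rostral KO and 4.95, 4.6 and 5.58 in rostral WT. All 3 rostral KO arrays and 2 of the rostral WT arrays were below 5.21. On the values as deposited, its difference of the KO effects was 1.95 ± 0.80 (limma, adjusted p = 1 over all tested probe sets), against -0.13 ± 0.32 for the probe set used. The 1.95 rested on values below 5.21: after raising these to 5.21 the difference was -0.19, of the same sign as on the probe set used. Which transcripts each probe set reads is not given in the sources used here.

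**Figure D4:**
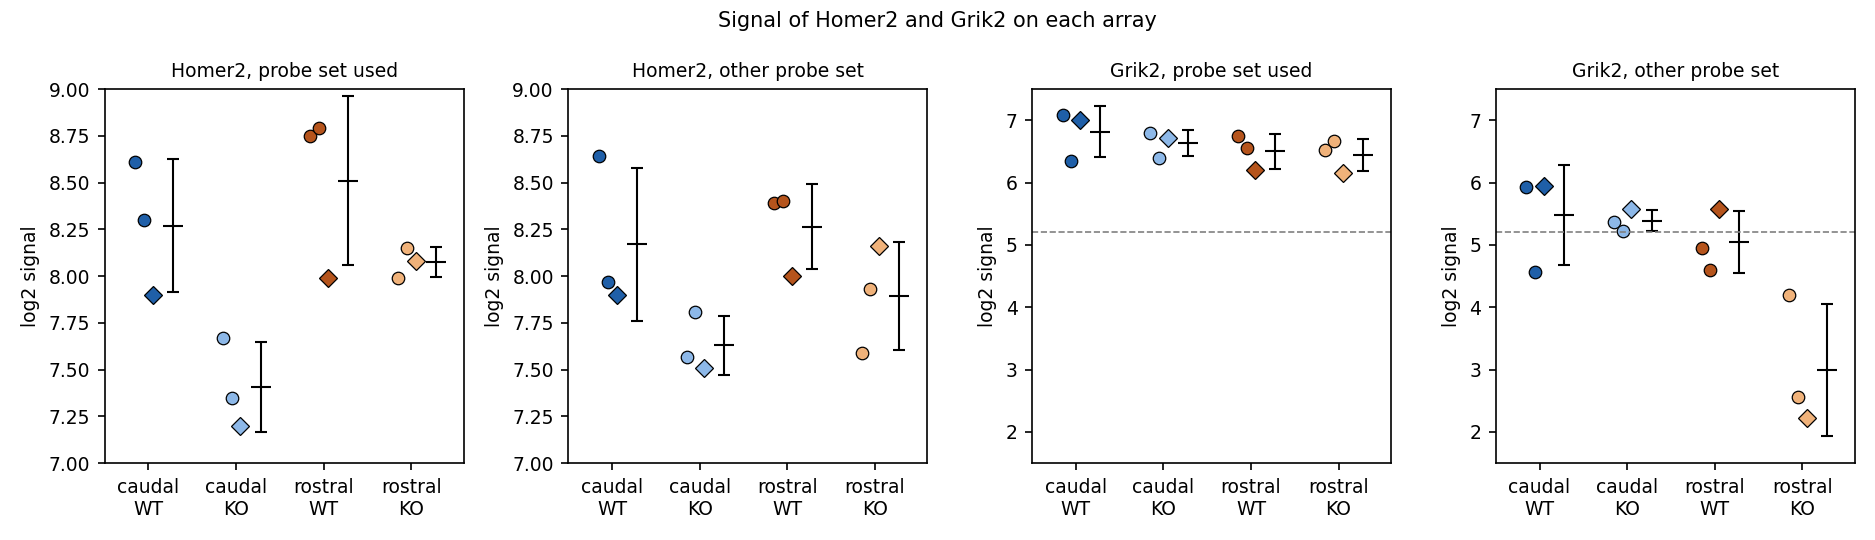
Log2 signal (vertical axis) of Homer2 and Grik2, each on its 2 tested probe sets, for each array of the 4 groups; circles are animals 1 to 12, diamonds animals 13 to 16, the bar is the mean ± SD of 3 arrays, and the dashed line marks 5.21. The mean of Homer2 was lowest in caudal KO on both probe sets, with WT animals 14 and 16 below the other WT arrays of their groups, and the dimmer probe set of Grik2 was below 5.21 on all 3 rostral KO arrays.

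Receptor genes also varied between the animals of a group. The arrays of animals 13, 14, 15 and 16 were each compared with the mean of the other 2 arrays of their group, as a description. Grin2b read 7.31, 7.22, 6.92 and 7.2 on these 4 arrays, in the order caudal KO, caudal WT, rostral KO and rostral WT, and 5.78 to 6.37 on the other 8 arrays. It was thus highest in all 4 groups with a wide gap, by 1.12, 1.15, 0.98 and 1.09. Gria2 read 11, 10.71, 10.7 and 10.65 on the 4 arrays and 9.71 to 10.28 on the other 8, higher by 0.91, 0.85, 0.51 and 0.57. On the probe sets used, only Grin2b and Gria2 among the members exceeded the others by over 0.5 in all 4 groups, 2 of 29, beside 0.602% of all genes. The other bright probe set of Grin2b was also highest on these arrays in all 4 groups. Another tested probe set of Gria2 read 9.91 on animal 15 and 9.98 on animal 8, and 9.45 on both animals 16 and 10. The remaining Gria2 probe set was highest on these arrays in all 4 groups.

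Gria1, Gria4 and Cacng4 were also highest on these arrays in all 4 groups, which made 5 of 29 members with Grin2b and Gria2, beside 6.35% of all genes. The mean difference was 0.43 for Gria1, 0.37 for Gria4 and 0.17 for Cacng4. These counts and values are for the probe sets used, and the other tested probe sets of these genes differed. That of Gria1 read 7.59 on animal 16 and 7.72 on animal 10. That of Cacng4 read 7.46 on animal 13, the lowest of caudal KO. The dimmer Gria4 probe set was lowest of its group on animals 13, 14 and 16, at 5.07, 4.85 and 4.88, all below 5.21. Dlg4, for the main postsynaptic scaffold of mature synapses, was lowest in all 4 groups with a mean difference of -0.24, 1 of 29 beside 10.4% of all genes. The median over the members was 0.22, against -0.06 over all tested genes and 0.11 over the 12 neuron markers, of which 3 were highest in all 4 groups. Slc17a6, with a mean difference of 0, did not separate these animals, and Grm3 was higher on 3 of the 4 arrays and lower on rostral WT animal 16. The labels do not say how animals 13 to 16 differ from the others.

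**Figure D5:**
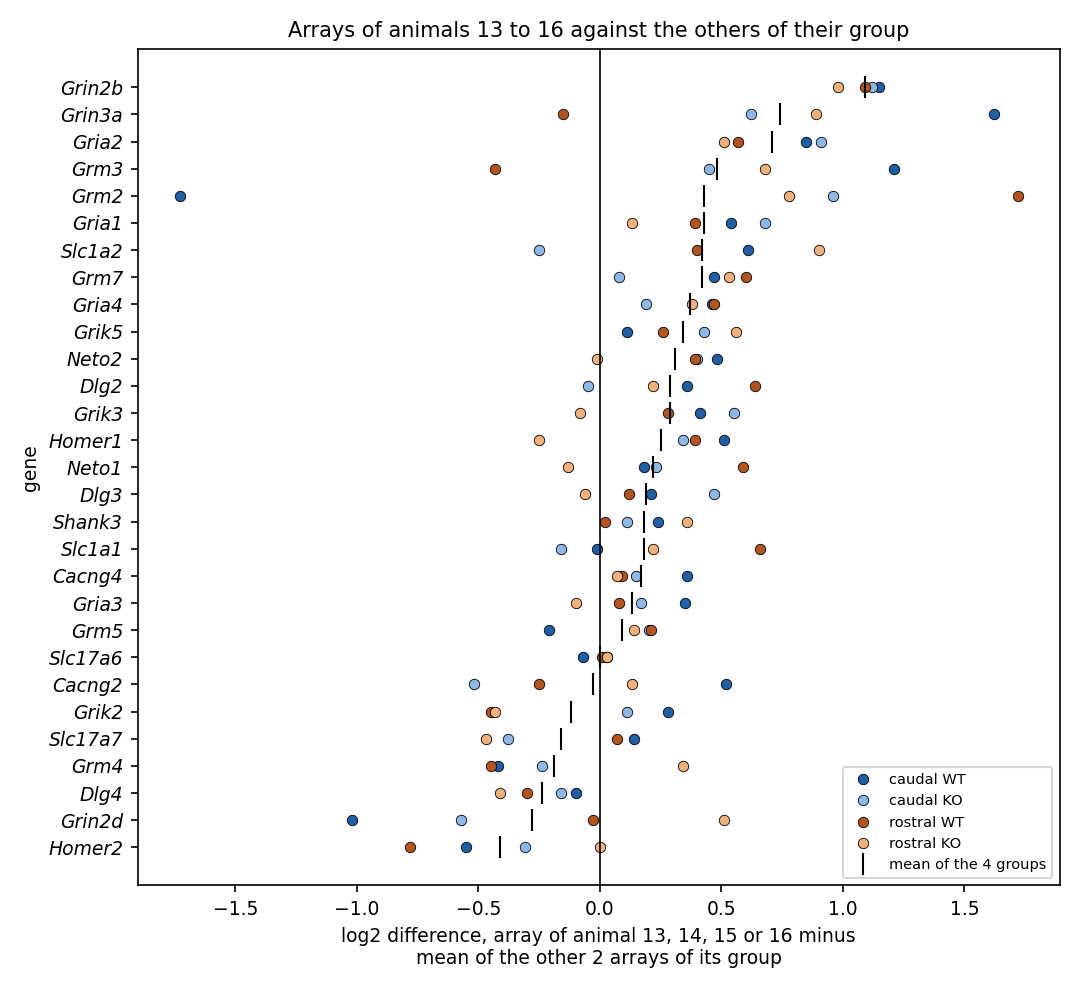
Log2 difference of the array of animal 13, 14, 15 or 16 from the mean of the other 2 arrays of its group (horizontal axis), for the 29 tested members ordered by the mean over the 4 groups (vertical tick); each point is 1 group. All 4 points of Grin2b lie near 1, those of Gria2 between 0.51 and 0.91, and those of Slc17a6 near 0.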

How the data were processed

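Gene expression in 12 cortex samples was measured on 1-colour oligonucleotide arrays. Per the labels' protocols, RNA was extracted with a column kit including DNase treatment, and amplification with biotin labelling started from 400 ng of total RNA. The authors deposited 1 table of log2 values (read as log2 from their range of -3.81 to 14.02, with nearly equal quartiles). Background correction, normalisation and summarisation are not given in the sources used here, and the table carries no detection calls. The values were used as deposited.

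Of 45101 probe sets, 34958 named 1 gene in the platform annotation, 932 that named several genes were not used, and 9211 were unnamed here. The tested probe set of highest mean stood for its gene, giving 11785 genes. Groups were compared with limma (version 3.58.1, run in R version 4.3.3), in a single fit of the 12 arrays with a mean per group. Variances were moderated along an intensity trend, with 5.37 prior beside 8 residual degrees of freedom, and the code was tested on simulated data. P-values are two-sided, with Benjamini-Hochberg adjustment over the 11785 genes and a threshold of 0.05. Values of single probe sets come from the same fit over 24676 tested probe sets. Precision is limited by having 3 arrays in each group.

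Full statistics are given for members that passed, or for the 3 of smallest p where none did. A second probe set was named where its sign differed and either p was under 0.05. The other probe sets of Slc17a6, Homer1, Homer2, Gria1, Gria2, Gria3, Gria4, Cacng4 and Grin2b, and markers beyond the 6 of smallest p, were shown after their values were seen. The members and lists were chosen with earlier results of these data known. Alternatives were other normalisation, filters, probe set choices, moderation, array weights, arrays in the fit, a term for animals 13 to 16 and each array left out. Promoter sequences are from RefSeq.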

Additional observations from a re-analysis of the deposited data

How the results depend on the processing

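Over 26 alternatives, 12 of which left out 1 array, no result changed direction among those that were called. Counts of called members moved as follows. For caudal against rostral averaged over genotypes, 2 members became 1 with the filter at the 75th percentile (Slc17a6; Grm3 was not tested there), 1 for animals 1 to 12 only (Grm3) and 4 with the term for animals 13 to 16 (Gria4 and Homer2 added), and ran from 2 to 3 with 1 array left out. In WT, 0 became 1 (Grm3) with array weights, with the term for animals 13 to 16 and for animals 1 to 12 only, and ran from 0 to 1 with 1 array left out. In KO, 1 became 0 with every tested probe set, with no intensity trend, with only the groups compared, for animals 1 to 12 only and without the 2 arrays with high Xist, 3 with the term for animals 13 to 16 and 4 with array weights, and ran from 0 to 2 with 1 array left out. For KO against WT averaged over regions, 0 became 1 (Homer2) with the term for animals 13 to 16. Counts for KO against WT in each region and for the difference of the KO effects were 0 throughout. Over all genes, the term for animals 13 to 16 moved the number called from 526 to 926 by region, from 111 to 257 in WT, from 112 to 342 in KO and from 4 to 20 by genotype, and array weights gave 637 in KO. The causes were not tested. No paired analysis was possible because the groups share no animal number. Low signal limits Grm2, Grm3, Grin3a and Slc17a7. Values within animals 13 to 16 alone were added after seeing the data and carry no test.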
